A study of Sus scrofa with 16 samples.

Results

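The 8 surface adhesion molecules of stromal cells described here were followed over 16 RNA libraries of porcine valve interstitial cells (VICs), the fibroblast-like cells of the aortic valve leaflet. They are VCAM1, ICAM1, NCAM1, ALCAM, MCAM, CSPG4, THY1 and CD34, chosen by name as immunoglobulin-type adhesion molecules and mesenchymal surface markers. All 8 were rows of the count table, among 29552 named rows in all, and all 8 passed the filter on low counts with 14530 tested genes. The study compared VICs kept for 48 hours on tissue culture plastic, which the labels call myofibroblasts, with VICs kept on a PEG-norbornene hydrogel of about 5.8 kPa, which the labels call quiescent fibroblasts. The 4 groups were female plastic, female gel, male plastic and male gel, with 4 biological replicates each. The cells came from leaflets of pigs of 5 to 6 months, and all groups were in Media 199 with 1% fetal bovine serum and the same antibiotics. No strain, transgene or drug is named. Plastic differs from the hydrogel in chemistry as well as in stiffness, so the contrast is between these 2 surfaces and not of stiffness alone.

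Cell adhesion molecules hold cells to each other or to matrix, and many of them also serve as the flags by which stromal cells are recognised and sorted. VCAM1 and ICAM1 are the endothelial and stromal counter-receptors of leukocyte integrins, and both are classical targets of NF-kB, the transcription factor of inflammatory signalling. NCAM1 and ALCAM make contacts between like molecules on neighbouring cells, MCAM and the proteoglycan CSPG4 (NG2) mark pericytes, and THY1 (CD90) and CD34 are widely used to part fibroblast populations.

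On plastic VCAM1 and ICAM1 fell and NCAM1, MCAM and CSPG4 rose, in both sexes. In female cells 5 of the 8 molecules passed the test between plastic and gel (adjusted p under 0.05 over all tested genes, by edgeR's quasi-likelihood test), where 23.9% of all tested genes did. VCAM1 and ICAM1 fell, where 11.3% of all tested genes fell, and NCAM1, MCAM and CSPG4 rose, where 12.7% of all genes rose. In male cells 7 of the 8 passed, against 25.8% of all genes, and the 2 that fell and the 5 that rose stand beside 12.9% of genes in each direction. THY1 and CD34 were the additional calls in male cells, and ALCAM passed in neither sex. With libraries of the same sex and number as a block, THY1 passed in female cells too (0.66, adjusted p = 0.000223), which made 6 of 8 in female cells and 7 of 8 in male cells. Plastic and gel libraries did not overlap for VCAM1, ICAM1, NCAM1, MCAM and CSPG4, which is 5 of 8 molecules in each sex, while 27.7% of all tested genes in female cells and 28.9% in male cells did not overlap. In bulk RNA, fewer cells carrying a transcript and less of it per cell cannot be told apart.

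**Figure D1:**
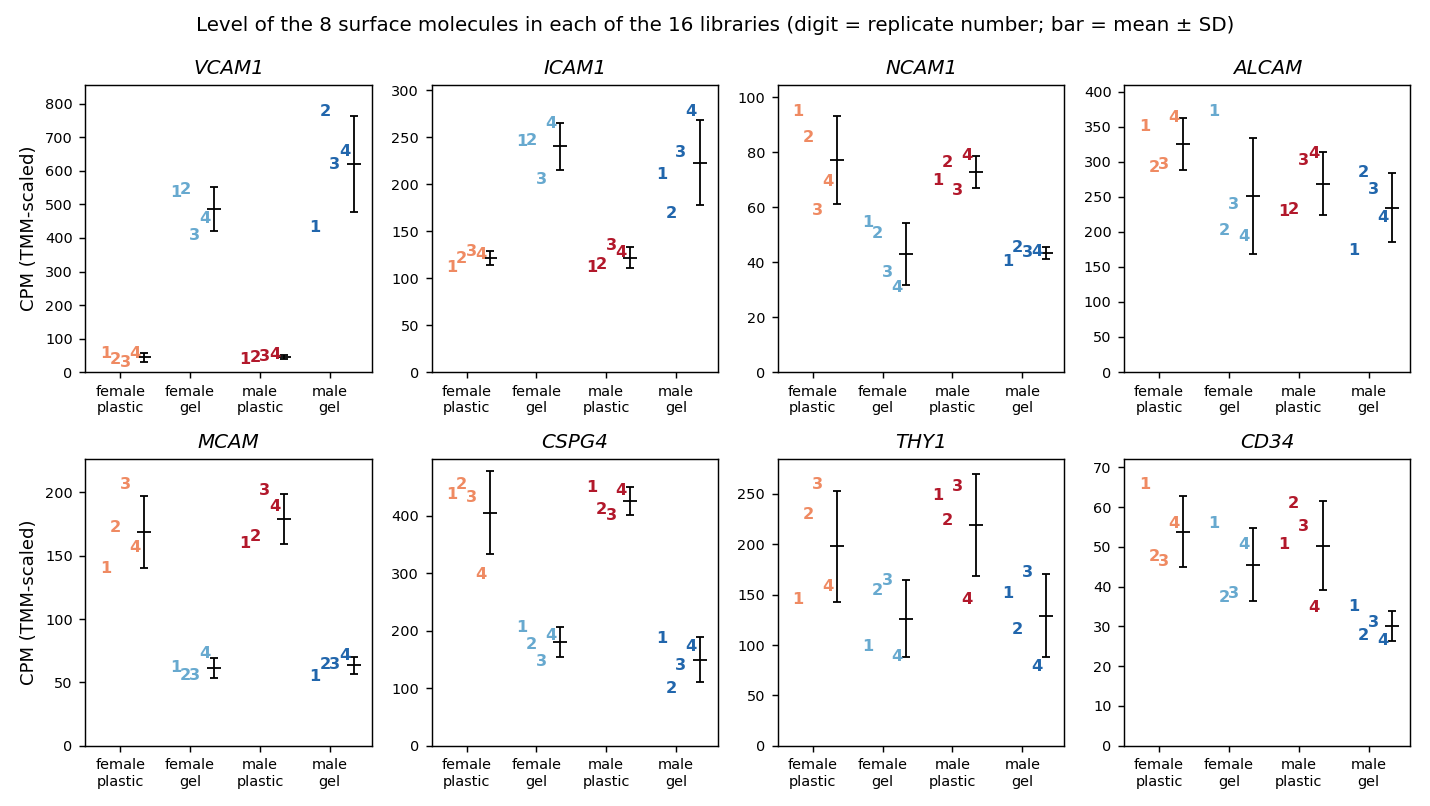
Level of each surface molecule in every library, in TMM-scaled CPM (linear axis), by group. Digits are replicate numbers and the bar beside them is the mean ± SD of 4 libraries. VCAM1 lies under 55 CPM in all 8 plastic libraries and above 400 CPM in all 8 gel libraries, whereas the ALCAM groups overlap.

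The total number of counts ran from 16897547 to 27436151 per library, with the lowest in male gel 2. Fibroblast genes were high throughout, with the intermediate filament gene VIM at 4829 to 8174 CPM and COL1A1 at 8826 to 17518 CPM, and of 16 fibroblast markers 5 rose and 6 fell in female cells and 6 rose and 6 fell in male cells. Among all tested genes 12.7% rose and 11.3% fell in female cells, and 12.9% moved each way in male cells. The leukocyte gene PTPRC had 1 count in all 16 libraries together. The summed level was 6.44 to 39.9 CPM for 20 leukocyte markers, 13.3 to 27.1 CPM for 15 neural crest markers, 1.41 to 5.28 CPM for cardiac and skeletal muscle markers and 1.11 to 3.21 CPM for adipocyte and mesothelial markers. Endothelial markers were present: 21 of 22 were tested, MMRN1 had no count in any library, and the summed level of the list was 319 to 763 CPM in female plastic, 301 to 489 CPM in female gel, 307 to 499 CPM in male plastic and 279 to 498 CPM in male gel. In male cells ERG and TAL1 held much of that sum. ERG averaged 148 CPM in male plastic and 110 CPM in male gel, and TAL1 83.7 and 96.3 CPM. Others of the list were low, with VWF at 1.21 and 1.29 CPM and KDR at 0.343 and 0.698 CPM. CDH5, the junctional cadherin of endothelium, was highest in the cultures numbered female 1, female 4 and male 4 on both surfaces, and these 3 cultures also stood apart on the second principal component, which held 16.3% of the variance of the 500 most variable genes. CDH5 averaged 43.7 CPM in male plastic and 17.1 CPM in male gel. PECAM1, of the same list, averaged 37.7 and 55.2 CPM, the other way, and neither passed in male cells.

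The 2 counter-receptors of leukocyte integrins come first. VCAM1 (NCBI gene 396925) lies on chromosome 4, 117496914 to 117511211 of the pig build Sscrofa11.1. It binds the integrin of ITGA4 and ITGB1 chains on leukocytes. In CPM, the TMM-scaled share of a library's counts, VCAM1 had 54.4, 38.6, 28.5 and 54.1 in female plastic 1 to 4, against 535, 546, 409 and 459 in female gel 1 to 4. Male plastic 1 to 4 had 37.3, 41.95, 45.3 and 53.6 CPM, against 432, 779, 618 and 657 in male gel 1 to 4. Every plastic library was far under every gel library, and relative to the mean the spread was widest in female plastic, with a coefficient of variation of 28.8%, and next in male gel, with 23.1%. The log2 change was -3.47 (SE 0.22, adjusted p = 2.93e-08) in female cells, a level 11.09-fold lower on plastic. In male cells it was -3.80 (SE 0.22, adjusted p = 1.13e-08), 13.95-fold lower on plastic. Ranked from the deepest fall among the 14530 tested genes, VCAM1 was number 39 in female cells and number 28 in male cells. The level ordered male gel (622 ± 144), female gel (487 ± 65.0), male plastic (44.5 ± 6.85) and female plastic (43.9 ± 12.6 CPM, mean ± SD, n = 4), and the groups of the same surface overlapped. On plastic the gene was still well measured, with 647 to 1282 reads per library.

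ICAM1 (NCBI gene 396750; chromosome 2, 69097136 to 69107722) binds the beta-2 integrins of leukocytes. Female plastic 1 to 4 had 112, 121, 128 and 125 CPM, against 246, 246, 205 and 264 CPM in female gel 1 to 4. Its levels were 111, 114, 135 and 127 CPM in male plastic 1 to 4, against 210.1, 169, 234 and 278 CPM in male gel 1 to 4. The plastic libraries sat close together, with a coefficient of variation of 5.81% in female and 8.97% in male cells, and the gel libraries were higher and more dispersed. ICAM1 fell by 0.98 on the log2 scale in female cells (SE 0.13, adjusted p = 3.88e-05) and by 0.87 in male cells (SE 0.13, adjusted p = 0.000104), so that plastic held 0.505 and 0.547 of the gel level. The order was female gel (240.3 ± 24.9), male gel (223 ± 45.5), male plastic (122 ± 10.9) and female plastic (121 ± 7.06 CPM), again with overlap between the sexes on each surface. The 95% intervals of the changes of VCAM1 (-3.94 to -3.01 in female cells) and ICAM1 (-1.26 to -0.71 in female cells) do not meet, and neither do those in male cells (-4.28 to -3.33 and -1.14 to -0.60). After each group's mean was subtracted, VCAM1 and ICAM1 did not move together over the 16 libraries (Pearson r = -0.03). That value describes libraries that share cultures and carries no test.

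The molecules NCAM1 and ALCAM, which bind like molecules on other cells, gave 1 clear rise and 1 change that missed the threshold. NCAM1 (NCBI gene 100515564; chromosome 9, 40628602 to 40960605), the neural cell adhesion molecule that can carry polysialic acid, had 95.04, 85.5, 58.9 and 69.4 CPM in female plastic 1 to 4, against 54.4, 50.4, 36.1 and 30.7 CPM in female gel 1 to 4. Male plastic 1 to 4 had 69.6, 76.3, 66.1 and 78.7 CPM, against 40.1, 45.2, 43.4 and 44.0 CPM in male gel 1 to 4. The male libraries were tightly grouped on each surface, while female cultures 1 and 2 were above cultures 3 and 4 on both. NCAM1 rose by 0.85 on the log2 scale in female cells (SE 0.17, adjusted p = 0.00141) and by 0.75 in male cells (SE 0.17, adjusted p = 0.00342), a level 1.80-fold and 1.68-fold higher on plastic. By level the groups ordered female plastic (77.2 ± 16.1), male plastic (72.7 ± 5.85), male gel (43.2 ± 2.20) and female gel (42.9 ± 11.3 CPM), and the step between surfaces was the only one without overlap. Counting each number of a sex as 1 culture, plastic was above gel in 8 of 8 cultures, by 0.61 to 1.17 log2 units.

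ALCAM (CD166; NCBI gene 397269; chromosome 13, 153794991 to 153998241) binds itself and the lymphocyte receptor CD6. Female plastic 1 to 4 had 349.9, 291, 296 and 363 CPM, against 372, 201, 238 and 193 CPM in female gel 1 to 4. In male cells plastic 1 to 4 had 229, 231, 302 and 312 CPM, against 173, 284, 261 and 220.2 CPM in gel 1 to 4. Female gel 1 had the highest level of all 16 libraries, and the surfaces overlapped in both sexes. The log2 change was 0.37 in female cells (95% interval -0.05 to 0.79, adjusted p = 0.192) and 0.20 in male cells (-0.22 to 0.61, adjusted p = 0.507). These intervals hold no change as well as a rise of moderate size. Without female gel 1 the female change was 0.62 (SE 0.17, adjusted p = 0.0152), so that library decided the call. Plastic exceeded gel in 6 of 8 cultures, the exceptions being female 1 and male 2.

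MCAM and CSPG4, molecules of pericytes and smooth muscle, had the largest rises among the 8. MCAM (CD146; NCBI gene 733617; chromosome 9, 46506375 to 46522091) is an immunoglobulin-type receptor of vascular cells and binds laminins that contain the LAMA4 chain. It had 139.8, 172, 206 and 157 CPM in female plastic 1 to 4, against 62.1, 55.4, 55.7 and 72.8 CPM in female gel 1 to 4. Male plastic 1 to 4 had 159.8, 165, 202 and 189 CPM, against 54.3, 64.0, 64.2 and 71.0 CPM in male gel 1 to 4. The lowest plastic library was above the highest gel library by a wide margin in both sexes. The log2 change was 1.46 in female cells (SE 0.13, adjusted p = 1.23e-06) and 1.497 in male cells (SE 0.13, adjusted p = 8.26e-07), a level 2.74-fold and 2.82-fold higher on plastic. In order, male plastic (179 ± 19.7) and female plastic (169 ± 28.1) were followed by male gel (63.4 ± 6.90) and female gel (61.5 ± 8.12 CPM), with overlap within each surface. The annotated span of MCAM overlaps that of CBL, a ubiquitin ligase gene, and reads in the shared stretch cannot be assigned with certainty because the strand setting of the counting is not given in the sources used here. CBL itself had a log2 change of 0.46 in female and 0.38 in male cells (SE 0.08 in each).

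CSPG4 (NCBI gene 733676; chromosome 7, 57949182 to 57988602) is a transmembrane chondroitin sulfate proteoglycan that binds type VI collagen. Female plastic 1 to 4 had 438, 454, 433 and 299 CPM, against 206, 176, 146 and 193 CPM in female gel 1 to 4. Its male values were 449, 411, 400.4 and 445 CPM in plastic 1 to 4, against 186, 98.9, 140.1 and 174 CPM in gel 1 to 4. Surfaces did not overlap, female plastic 4 was well under the other plastic libraries, and the library of lowest depth, male gel 2, was the lowest of all. CSPG4 rose by 1.17 on the log2 scale in female cells (SE 0.18, adjusted p = 0.000137) and by 1.51 in male cells (SE 0.18, adjusted p = 1.33e-05), a level 2.25-fold and 2.85-fold higher on plastic. The order was male plastic (426 ± 24.2), female plastic (406 ± 72.1), female gel (180.4 ± 25.7) and male gel (149.8 ± 39.1 CPM), and neighbours on the same surface overlapped. MCAM and CSPG4 are themselves counted among pericyte markers, and of 14 other tested genes of a pericyte and smooth muscle list 9 rose and 3 fell in female cells, and 9 rose and 3 fell in male cells. The median log2 change of that list was 1.39 in female and 1.69 in male cells, against -0.04 and -0.03 for all tested genes. Over all tested genes 12.7% rose and 11.3% fell in female cells, and 12.9% moved each way in male cells. The genes of the list that rose were those of the contractile apparatus and its calcium store (DES, MYH11, ACTA2, CNN1, TAGLN, SMTN, LMOD1 and CASQ2) and the receptor NOTCH3. Those that fell are used as pericyte markers. ABCC9, a potassium channel subunit, changed by -1.88 in female and -1.87 in male cells, its partner KCNJ8 by -2.23 and -1.83, and NDUFA4L2 by -1.43 and -1.60. The pericyte receptor PDGFRB did not pass, at -0.15 in female and 0.14 in male cells. Within groups MCAM and CSPG4 were not coupled, with r = 0.09 over the 16 libraries.

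**Figure D2:**
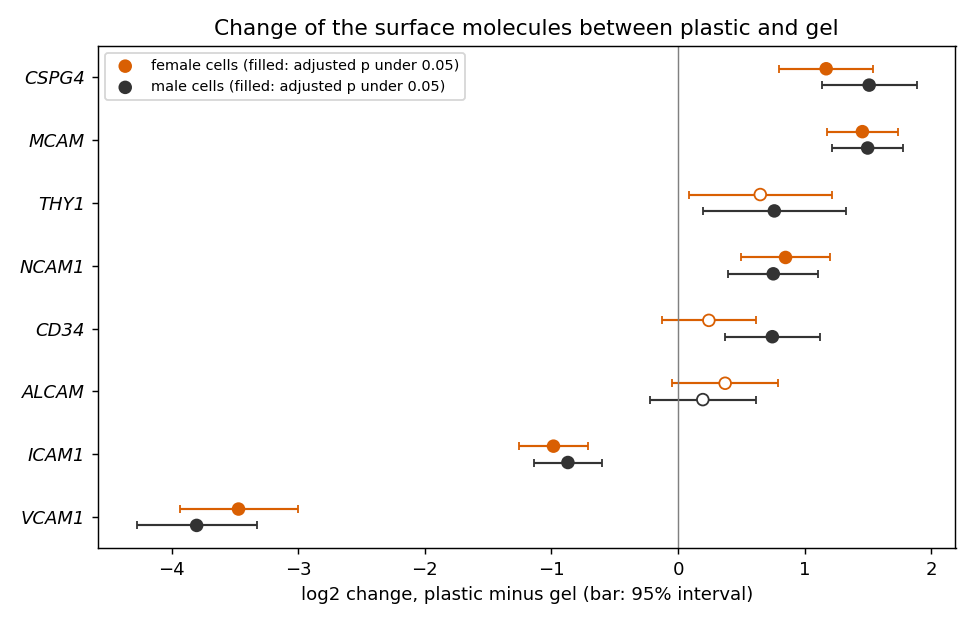
Log2 change between plastic and gel (x axis) for each surface molecule, in female cells (orange) and male cells (black). Bars are 95% intervals and filled points passed an adjusted p of 0.05. VCAM1 stands alone at the left, and MCAM and CSPG4 lie furthest to the right in both sexes.

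THY1 and CD34, markers used to part fibroblast populations, passed in male cells and not in female cells in the fit without a block. THY1 (CD90; NCBI gene 100271931; chromosome 9, 46607022 to 46612691), a small glycolipid-anchored protein, lies 84.9 kb from MCAM. It had 145, 229, 259 and 158 CPM in female plastic 1 to 4, against 98.1, 154, 164 and 88.4 CPM in female gel 1 to 4. Male plastic 1 to 4 had 249, 224, 257 and 146 CPM, against 151, 115, 172 and 78.7 CPM in male gel 1 to 4. The surfaces overlapped in both sexes because female cultures 1 and 4 and male culture 4 were low wherever they were grown. The log2 change was 0.65 in female cells (SE 0.27, adjusted p = 0.0915, not called) and 0.76 in male cells (SE 0.27, adjusted p = 0.0464). With libraries of the same sex and number as a block, the change was 0.66 in female cells (SE 0.09, adjusted p = 0.000223) and 0.79 in male cells (SE 0.09, adjusted p = 5.49e-05), and both passed. Culture by culture, plastic was above gel in 8 of 8, by 0.57 to 0.96 log2 units. Without the block, the male call was lost when any of male plastic 1, 2 or 3, male gel 1, 2 or 4, female plastic 2 or female gel 2 was left out, at adjusted p from 0.0506 to 0.121. By level the groups ordered male plastic (219 ± 50.8), female plastic (198 ± 55.1), male gel (129 ± 41.0) and female gel (126 ± 38.5 CPM), each overlapping its neighbour.

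The cultures with low THY1 were those with high CDH5. On plastic the 3 libraries of lowest THY1, female 1, male 4 and female 4, had CDH5 at 174, 87.9 and 88.8 CPM, and the other 5 had 21.0 to 42.3 CPM. On gel the 3 lowest, male 4, female 4 and female 1, had 44.8, 47.1 and 20.3 CPM of CDH5, and the other 5 had 4.97 to 11.2 CPM. After subtraction of group means, THY1 and CDH5 had r = -0.84 over the 16 libraries, and THY1 and the summed endothelial list had r = -0.86. CDH5 was picked with its values known, the points share cultures, and the part of endothelial RNA in the level of THY1 was not tested. Of the other 7 molecules, VCAM1 had the highest r with the endothelial sum (0.71, and 0.50 with CDH5) and ICAM1 the highest r with CDH5 (0.60, and 0.36 with the sum). MCAM and CD34, both also known from endothelium, had r = 0.06 and 0.18 with the sum and 0.20 and 0.14 with CDH5. Leaving out the 6 libraries of these 3 cultures keeps 2 female libraries per surface. These 6 are the lowest in THY1 on each surface, so a smaller spread of THY1 follows from the choice. Without them, THY1 changed by 0.63 in female cells (SE 0.17, adjusted p = 0.0334) and by 0.75 in male cells (SE 0.14, adjusted p = 0.00346). MCAM then rose by 1.78 in female cells and 1.54 in male cells, and VCAM1 had a log2 change of -3.82 in female cells and -3.86 in male cells.

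**Figure D3:**
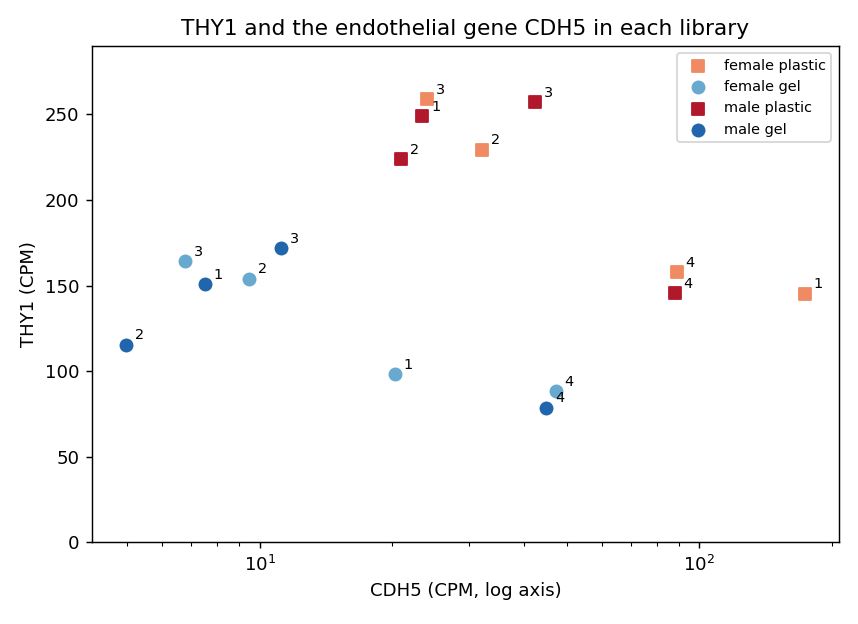
THY1 (y axis, CPM) against the endothelial cadherin gene CDH5 (x axis, CPM, log axis) in each library. Squares are plastic and circles are gel, orange and light blue female, red and blue male, with the replicate number beside each point. On each surface the libraries of female 1, female 4 and male 4 have the lowest THY1 and the highest CDH5.

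CD34 (NCBI gene 397160; chromosome 9, 134912793 to 134937763), a sialomucin of progenitor, endothelial and resident fibroblast cells, had the largest difference between the sexes among the 8 on gel, though it did not pass the test, and not on plastic. It had 65.6, 47.5, 46.2 and 55.9 CPM in female plastic 1 to 4, against 55.8, 37.4, 38.2 and 50.5 CPM in female gel 1 to 4. Male plastic 1 to 4 had 50.6, 60.9, 55.1 and 34.7 CPM, against 34.9, 27.7, 30.9 and 26.5 CPM in male gel 1 to 4. The surfaces overlapped in both sexes, in male cells only through male plastic 4 and male gel 1. CD34 rose by 0.74 on the log2 scale in male cells (SE 0.18, adjusted p = 0.00521), and its change in female cells was 0.24 (95% interval -0.13 to 0.61, adjusted p = 0.344). The difference of these changes was -0.50 (female minus male, 95% interval -1.02 to 0.02, adjusted p = 0.767 by edgeR), which did not pass. These values are from the fit without a block. With the block, CD34 changed by 0.25 in female cells (SE 0.12, adjusted p = 0.134 by edgeR). In male cells the blocked change was 0.72 (SE 0.12, adjusted p = 0.000667 by edgeR). Plastic was above gel in 8 of 8 cultures, by 0.15 to 1.13 log2 units. The order was female plastic (53.8 ± 8.96), male plastic (50.3 ± 11.2), female gel (45.5 ± 9.16) and male gel (30.0 ± 3.78 CPM), and the step from female gel to male gel was the only one without overlap.

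Between the sexes, 0 of the 8 molecules passed on gel, where 0.103% of tested genes did (0.00688% higher and 0.0964% lower in female cells). On plastic 0 of 8 passed, where 0.124% of tested genes did (0.0275% higher and 0.0964% lower in female cells, edgeR). DESeq2 and limma-voom also called 0 of 8 on each surface. At an unadjusted p under 0.05 by edgeR the count was 1 of 8 on gel, where 560 of 14530 tested genes were under it. On plastic it was 0 of 8, where 284 of 14530 were. The 1 was CD34 on gel, at 0.60 on the log2 scale (female minus male, SE 0.18, adjusted p = 0.852), or 0.28 without the 6 libraries named above, and it was the only molecule whose groups did not overlap, where 2.03% of tested genes did not overlap between the sexes on gel. On plastic the changes ran from -0.15 for THY1 to 0.28 for ALCAM. The 95% intervals there reach furthest for THY1, from -0.71 to 0.42, so differences of that size are not shown to be absent. The difference of the surface changes between the sexes passed for 0 of 8 molecules by edgeR, DESeq2 and limma-voom. Of all tested genes 0% passed. With the replicate block it passed for 0 of 8 molecules too. In the fit without a block, 0 of 8 had an unadjusted p under 0.05 against 633 of 14530 genes. Unadjusted values with the block are not given here.

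The cultures differed from each other to a different degree in each molecule. Over the 16 libraries the SD of the log2 level around the group means was 0.44 for THY1, 0.32 for VCAM1, 0.31 for ALCAM, 0.27 for CSPG4 and for CD34, 0.26 for NCAM1 and 0.19 for ICAM1 and for MCAM. The median over tested genes of at least 5 CPM was 0.21, and THY1 was above 91.4% of them. Libraries of the same sex and number deviated together for THY1 (r = 0.96 between gel and plastic over 8 cultures), NCAM1 (r = 0.81) and CD34 (r = 0.62). They did so less for VCAM1 (r = 0.44), ICAM1 (r = 0.39) and ALCAM (r = 0.23), and not visibly for CSPG4 (r = 0.05) and MCAM (r = -0.12). Among the 28 pairs of molecules, the within-group deviations were most alike for VCAM1 and ALCAM (r = 0.61) and most opposed for VCAM1 and THY1 (r = -0.61). These are descriptions of 16 libraries that share cultures, with no test.

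**Figure D4:**
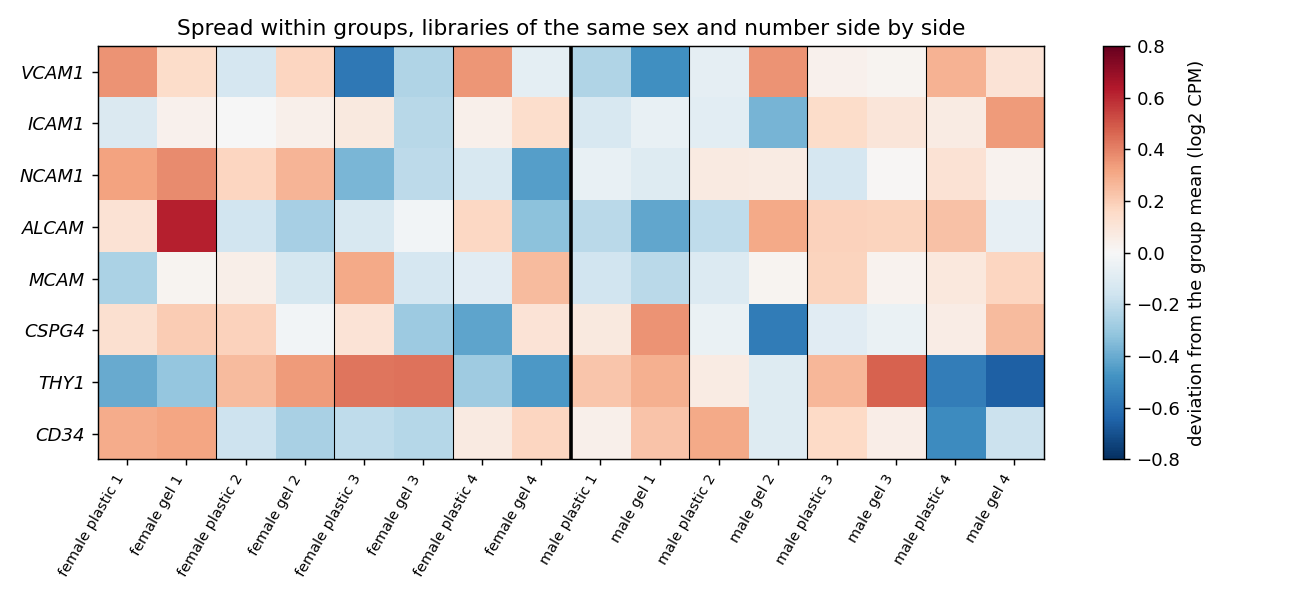
Deviation of each library from its group mean (colour, log2 CPM) for each surface molecule (rows), with plastic and gel libraries of the same sex and number side by side. THY1 is low on both surfaces in female 1, female 4 and male 4, whereas the deviations of MCAM and CSPG4 are not shared between surfaces.

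To find genes that varied most like each molecule, within-group deviations were compared with those of 9596 tested genes that had a symbol and averaged 5 CPM or more. THY1 was followed most closely by TSPAN7 (a tetraspanin of the cell surface, r = 0.99), CRTAP (a protein of collagen hydroxylation, r = 0.96) and ACTC1 (cardiac actin, r = 0.95). TSPAN7 did not pass between surfaces, with a log2 change of 0.18 in female cells (SE 0.33) and 0.47 in male cells (SE 0.33). CRTAP did not pass either, at -0.08 in female and -0.01 in male cells (SE 0.13 in each). ACTC1 rose by 4.08 in female cells (SE 1.08, adjusted p = 0.0111 by edgeR) and by 4.44 in male cells (SE 1.08, adjusted p = 0.00622 by edgeR). ALCAM was most like PTPRD (a receptor phosphatase, r = 0.95), the laminin-binding integrin chain ITGA6 (r = 0.95) and the cytoskeletal pseudokinase PEAK1 (r = 0.90). ICAM1 was most like the immunoglobulin-type surface protein CD276 (r = 0.91), and VCAM1 most like the small GTPase ARL3 (r = 0.91). NCAM1 followed HACL1 (r = 0.91) and PHYH (r = 0.88), both enzymes of peroxisomal alpha-oxidation. CSPG4 was most like WRNIP1 (r = 0.93), MCAM most like the RNA polymerase III subunit POLR3A (r = 0.87) and CD34 most like PIGN (r = 0.79), an enzyme of glycolipid anchor synthesis. Each r is the highest of 9596 over 16 libraries that share cultures, and no p is attached to it.

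The binding partners and anchors of the 8 molecules moved in both directions. Of 22 tested genes of 27 listed, 6 rose and 4 fell in female cells (median log2 change 0.11), and 7 rose and 5 fell in male cells (median 0.04), against medians of -0.04 and -0.03 over all tested genes. Of all tested genes 12.7% rose and 11.3% fell in female cells, and 12.9% moved each way in male cells. ITGA4, the alpha chain of the VCAM1 receptor, averaged 14.3 CPM in female plastic and 5.71 CPM in female gel, a change of 1.32 on the log2 scale (SE 0.25, adjusted p = 0.00103), and 16.2 CPM in male plastic and 5.48 CPM in male gel (1.56, SE 0.25, adjusted p = 0.00027). Its partner chain ITGB1 rose by 1.53 in female cells (SE 0.15) and 1.24 in male cells (SE 0.15). Both receptor chains were thus higher on plastic, where VCAM1 was lower. MSN (moesin), which ties ICAM1, VCAM1 and other surface proteins to actin, rose by 0.89 in female and 0.71 in male cells (SE 0.11 in each), and MPDZ, a scaffold that binds the tail of CSPG4, by 0.86 and 0.72 (SE 0.13 in each). SDC4, a heparan sulfate proteoglycan that acts as a co-receptor for THY1, changed by -1.23 in female cells and -1.04 in male cells (SE 0.11 in each).

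Among enzymes that shed or modify these molecules, 13 of 14 were tested, of which 2 rose and 2 fell in female cells and 0 rose and 3 fell in male cells (median log2 change -0.29 and -0.07). Over all tested genes 12.7% rose and 11.3% fell in female cells, and 12.9% moved each way in male cells. ADAM17, the main sheddase of VCAM1 and of several other surface proteins, averaged 85.2 CPM in female plastic and 135 CPM in female gel (-0.66, SE 0.11, adjusted p = 0.00044), and 74.7 CPM in male plastic and 135 CPM in male gel (-0.85, SE 0.11, adjusted p = 4.33e-05). The membrane protease MMP14 changed by -0.43 in each sex (SE 0.10 in each). Without male gel 2, 2 genes of this list rose and 5 fell in female cells, and without the 6 libraries named above 0 rose and 2 fell.

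NF-kB response genes fell with VCAM1 and ICAM1. Of 23 tested genes of this list, which holds neither molecule, 19 fell and 1 rose in female cells, and 19 fell and 1 rose in male cells. The median log2 change of the list was -1.20 in female and -1.06 in male cells. Among all tested genes 11.3% fell and 12.7% rose in female cells, and 12.9% moved each way in male cells. SOD2, the mitochondrial superoxide dismutase, averaged 33.0 CPM in female plastic and 584 CPM in female gel (-4.15, SE 0.15, adjusted p = 5.99e-11), and 32.5 CPM in male plastic and 599 CPM in male gel. NFKBIA, the inhibitor that NF-kB induces against itself, changed by -2.60 in female and -2.58 in male cells (SE 0.16 in each), and the chemokine CXCL2 by -4.36 and -4.56 (SE 0.21 in each). The 1 that rose was REL, a subunit of NF-kB, by 1.32 in female cells (SE 0.21, adjusted p = 0.000214) and 0.81 in male cells (SE 0.21, adjusted p = 0.00858). A further 3 tested genes of the list did not pass in each sex. In male cells these were PTGS2 (0.19, SE 0.30), TRAF1 (0.17, SE 0.31) and RELA (0.16, SE 0.11). PTGS2 averaged 1024 CPM in male plastic and 900 CPM in male gel. SELE, the endothelial E-selectin and also in the endothelial list, averaged 0.757 CPM in female plastic and 13.0 CPM in female gel, and 0.974 CPM in male plastic and 12.5 CPM in male gel.

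**Figure D5:**
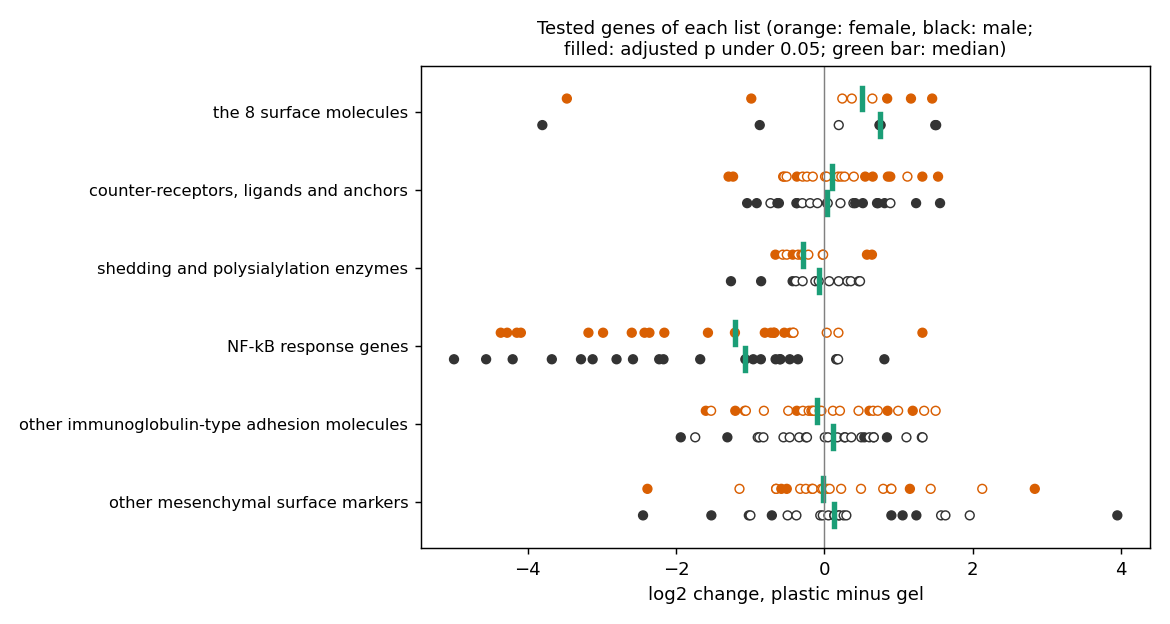
Log2 change between plastic and gel (x axis) of the 8 surface molecules and of the tested genes of 5 lists (rows), in female cells (orange, upper line) and male cells (black, lower line). Filled points passed an adjusted p of 0.05 and green bars are medians. The NF-kB response genes lie mostly left of 0, and the other lists spread to both sides.

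Relatives of the 8 molecules gave no common direction. Of 26 tested immunoglobulin-type adhesion molecules out of 34 listed, 3 rose and 4 fell in female cells (median log2 change -0.10), and 3 rose and 3 fell in male cells (median 0.11). In this fit without a block, these counts are near the shares of all tested genes. Those shares were 12.7% risen and 11.3% fallen in female cells, and 12.9% each in male cells. With the replicate as a block 7 of the list rose and 8 fell in female cells and 8 rose and 6 fell in male cells. The block called 4011 of all 14530 tested genes in female cells (2104 rose, 1907 fell) and 4319 in male cells (2251 rose, 2068 fell). With the block the share called in the list was thus above that of all tested genes, in each direction and sex. Without female plastic 4 the female count of the list was 2 and 2. L1CAM, a neural adhesion molecule that can bind ALCAM and NCAM1, averaged 50.5 CPM in female plastic and 22.1 CPM in female gel (1.19, SE 0.24, adjusted p = 0.00141), and 53.4 CPM in male plastic and 21.4 CPM in male gel (1.32, SE 0.24, adjusted p = 0.00063). NPTN (neuroplastin) rose by 0.85 in each sex (SE 0.11 in each). CLMP, a junctional molecule, changed by -1.60 in female cells and -1.94 in male cells (SE 0.11 in each).

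Other mesenchymal surface markers were as divided. The shares of all tested genes were again 12.7% risen and 11.3% fallen in female cells, and 12.9% each in male cells. Of 23 tested genes of 24 listed, 3 rose and 4 fell in female cells (median log2 change -0.02), and 4 rose and 4 fell in male cells (median 0.14). The female count was 2 and 1 without female plastic 2 or without female plastic 3, and 2 and 2 without female gel 1 or without female gel 4, and 3 and 1 in a fit of the 8 female libraries alone. PDGFRA, the alpha receptor for platelet-derived growth factor, changed by -2.38 in female cells and -2.44 in male cells (SE 0.16 in each). ANPEP (CD13, aminopeptidase N) averaged 215 CPM in female plastic and 115 CPM in female gel, and 229 CPM in male plastic and 122 CPM in male gel, a log2 change of 0.90 in each sex (SE 0.20 in each), and the female call was lost without the 6 libraries named above. FAP, a fibroblast surface protease, changed by -0.58 in female cells (SE 0.18, adjusted p = 0.0265) and by -1.02 in male cells (SE 0.18, adjusted p = 0.00056). The female call was lost in 7 of 25 alternatives: without female plastic 1, 2 or 3, without female gel 1, 2 or 4, and in the fit of the 8 female libraries alone. NGFR, a neurotrophin receptor used to sort stromal progenitors, rose in both sexes at low levels, with 1.94 CPM in female plastic and 0.268 CPM in female gel, and 2.42 CPM in male plastic and 0.141 CPM in male gel.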

How the data were processed

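Expression was measured in 16 polyA RNA libraries. The authors deposited raw counts per gene. The submitters' processing notes name the build Sscrofa11.1 and the tools HISAT2 2.1.0, featureCounts, Trimmomatic 0.36, SAMtools 1.3.1 and FastQC 0.11.5. The version of featureCounts and its strand setting are not given in the sources used here. Of 29576 rows, 24 named by numbers, with 0.169% of counts, were left out. Positions and gene numbers came from RefSeq on the same build. Gene lengths were not used, so levels are not compared between genes.

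Groups were taken from sample titles. Genes passing filterByExpr were fitted with edgeR 4.0.16 (R 4.3.3, TMM, quasi-likelihood F test, 4 group means over 16 libraries), with Benjamini-Hochberg adjustment over 14530 genes and a call at adjusted p under 0.05. Intervals are 95% and use the fit's total degrees of freedom. The fit was tested on simulated data drawn without shared cultures, so that test does not bear on the pairing of libraries. No library copied another of its group: chi-square per degree of freedom over 24 pairs was 9.93 to 81.9. Log2 CPM for deviations and principal components had a prior count of 2.

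Alternatives were RLE factors, DESeq2 1.42.0, limma-voom (limma 3.58.1), filters, a replicate block, the 8 libraries compared, and leaving out libraries. Same-numbered libraries of a sex deviated together (r = 0.13 to 0.49 over all tested genes, 8 of 8 pairs above 0.1), and 16 of 16 libraries matched their own number best on the other surface. The numbers were therefore taken to pair the libraries, although no label ties a number to 1 animal. The reported fit has no block, so its SEs and intervals do not use this pairing. Blocked values are given where they change a call of the 8 molecules, and for CD34.

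All 8 members were named whatever their result. From each list up to 3 called genes per direction and sex were eligible, and the text gives a part of them. For likeness the 3 genes with the highest r were eligible. SELE, CBL, CDH5, PECAM1, ERG, TAL1, VWF, KDR, VIM, COL1A1, PTPRC, MMRN1, CD6, ITGAX, ITGB2, PODXL, PTGS2, TRAF1, RELA and the genes of the pericyte and smooth muscle list were added after their values were seen. The members and the 12 lists were chosen with earlier results of these data known. Figures were drawn with matplotlib 3.10.9.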

Additional observations from a re-analysis of the deposited data

Results flagged for a closer look

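CSPG4 in female plastic 4 was at 298.6 CPM, apart from the other 3 female plastic libraries, which had 433 to 454 CPM. Its gap to the nearest of them was 0.861 of the range of the group, above Dixon's critical value for 4 samples. Of 32 group and molecule combinations examined this was the only one to stand out, and chance gives about 1 in 20. Without that library CSPG4 rose by 1.29 on the log2 scale in female cells (SE 0.17, adjusted p = 6.68e-05).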

How the results depend on the processing

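Over 25 alternatives, 13 of the 16 plastic against gel results of the 8 molecules kept their direction and their side of the threshold, and none of the 16 reversed. The exceptions were THY1 in both sexes and ALCAM in female cells. THY1 in female cells passed with DESeq2 (0.68, adjusted p = 0.0475), with the replicate block (0.66, adjusted p = 0.000223) and without the 6 libraries of male 4, female 1 and female 4 (0.63, adjusted p = 0.0334). Those 6 are the lowest in THY1 on each surface, so the last of these calls is not independent of the choice. THY1 was also less stable in male cells. In male cells it did not pass when male gel 2 and female plastic 4 were both left out (0.71, adjusted p = 0.0967), nor in 8 of 16 removals of 1 library, and over all 16 removals its change was 0.58 to 0.93. The number of molecules called stayed at 5 to 6 in female and 6 to 7 in male cells. Over all tested genes the female count was 3476 and became 1968 without those 6 libraries, which leaves 2 female libraries per surface. Leaving out 1 library gave 2780 to 4444 calls in female and 2859 to 3961 in male cells. The replicate block gave 4011 and 4319 calls. It changed no other call of the 8 molecules. RLE factors moved the median change over all genes from -0.04 to -0.01 in female and from -0.03 to -0.02 in male cells. Of 51 results of list genes that the naming rule gave, 37 kept their call in every alternative. Depth limits the values of the 8 molecules little, as they had at least 491 reads in every library. It bears more on low genes of the lists, such as NGFR at 0.141 CPM in male gel. In male gel 2, the library of lowest depth, 6 of 22 endothelial markers had no count, against 1 or 2 in the other male gel libraries.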

Other observations

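Several leukocyte receptors of these molecules had few or no counts. CD6, the lymphocyte receptor of ALCAM, had no count in any of the 16 libraries, and ITGAX, a chain of a beta-2 integrin that can bind ICAM1, had 17 counts in all. ITGB2, the beta chain that those integrins need, was at 0 to 0.783 CPM. ITGAL, the alpha chain of the main ICAM1 receptor of lymphocytes, was counted at 9.02 to 17.05 CPM in every library. It averaged 10.4 CPM in female plastic and 13.5 CPM in female gel, and 10.2 CPM in male plastic and 15.8 CPM in male gel.

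PODXL, a sialomucin related to CD34, ran from 1.43 to 23.5 CPM over the libraries.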
